A study of Homo sapiens with 156 samples.

Results

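The ISG12 family holds 4 human genes, IFI27, IFI6, IFI27L1 and IFI27L2, and all 4 were found among the 59939 genes of each deposited table. The family was selected on measured values, namely the large response of IFI27 to treatment, an interferon-type response, in earlier results of these data. Differences of IFI27 from vehicle and between treated groups are therefore given as a description without a test. So are the change of IFI6 from vehicle in MV411 cells with 400 nM GSK032 at day 4 and its differences between that group and other treated groups. The cells were MV411, THP1 and NOMO1, human acute myeloid leukemia lines with a rearranged KMT2A gene, and the study concerned inhibitors of DNMT1, the methyltransferase that copies DNA methylation marks after replication. RNA-seq covered 156 libraries, 26 groups of 2 for every line. GSK032 (GSK3685032) and decitabine (DAC), a nucleoside drug that replaces cytosine in DNA and binds DNMT1 there, were sampled at days 1, 2, 4 and 6 of 400 nM. Both were also sampled at day 4 of 3.2, 16, 80, 400, 2000 and 10000 nM. GSK862 (GSK3484862) at 1000 nM and GSK477 (GSK3510477) at 10000 nM were sampled at days 2 and 4. The vehicle, DMSO, was sampled at days 1, 2, 4 and 6 and is shared by all compounds of a day. Every group is a culture of an established line, the labels name no genetic change made to the cells, and they do not say whether the 2 libraries of a group came from separate cultures.

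Levels are FPKM, fragment numbers scaled by transcript length and library depth, so that they can be set side by side between genes. The files hold no counts, and depth estimated from low values was 33900000 to 127500000 fragments per library. Myeloid markers, 8 of 8 found, summed to 647 to 1970 FPKM in DMSO libraries of MV411, and to 448 to 641 in those of THP1 and 5558 to 7771 in those of NOMO1. The T-cell markers CD3E and CD2 and the erythroid markers HBB and ALAS2 stayed under 0.1 FPKM in all DMSO libraries of the 3 lines. Other T-cell markers did not, with 3.83 to 12.6 FPKM of CD3D in DMSO libraries of NOMO1 and up to 4.39 of TRAC in those of MV411.

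The family proteins are small, hydrophobic proteins that share a conserved stretch called the ISG12 motif. IFI27, also named ISG12a, has been placed in mitochondria and at the nuclear envelope, and IFI6, also named G1P3, in the endoplasmic reticulum and mitochondria, where it is known to oppose cell death and the replication of flaviviruses. Both are classical targets of type I interferon. Interferon binds the receptor IFNAR1 and IFNAR2, the kinases JAK1 and TYK2 pass the signal on by phosphorylation, and a complex that includes STAT2 and IRF9 binds interferon-stimulated response elements in the DNA of target genes. IFI27L1 and IFI27L2 are named for their likeness to IFI27, and less is known of their proteins. In cancer cells, inhibitors of DNA methylation are known to raise interferon target genes.

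Of the 4 genes 3 lie side by side on chromosome 14 of hg38. IFI27L1 (ENSG00000165948) spans chr14:94081282-94103846 on the forward strand, IFI27 (ENSG00000165949) chr14:94104836-94116698 on the forward strand and IFI27L2 (ENSG00000119632) chr14:94127779-94130253 on the reverse strand. IFI6 (ENSG00000126709) lies apart at chr1:27666061-27672218 on the reverse strand. An antisense gene, AL445490.1 (ENSG00000225886), overlaps IFI6 and had at most 5.09 FPKM in MV411, 5.06 in THP1 and 1.7 in NOMO1. Whether strand was used in counting is not recorded, so reads of the 2 genes may not be told apart.

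Sequence upstream of the transcription start was shown for the genes whose levels followed treatment, IFI27 and IFI6, and for IFI27L2 as a neighbour of IFI27 without a match. The sequences are from RefSeq (GRCh38.p14), 5′ to 3′ on the strand of the gene, at chr14:94110486-94110677 forward for IFI27, chr1:27672219-27672442 reverse for IFI6 and chr14:94129665-94129854 reverse for IFI27L2. Annotated exons were left out. The RefSeq starts lie inside the gene spans given above, so some annotated transcripts start further upstream. Capitals mark matches on either strand to GAAANNGAAA, the core of the interferon-stimulated response element.
IFI27: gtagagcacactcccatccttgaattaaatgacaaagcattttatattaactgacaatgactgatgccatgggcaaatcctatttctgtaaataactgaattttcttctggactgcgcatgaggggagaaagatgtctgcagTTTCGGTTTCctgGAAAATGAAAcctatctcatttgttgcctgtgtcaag
IFI6: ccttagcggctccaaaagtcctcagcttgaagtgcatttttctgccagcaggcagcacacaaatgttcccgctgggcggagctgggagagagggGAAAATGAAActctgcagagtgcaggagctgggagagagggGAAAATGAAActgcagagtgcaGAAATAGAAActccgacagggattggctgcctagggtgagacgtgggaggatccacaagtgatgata
IFI27L2: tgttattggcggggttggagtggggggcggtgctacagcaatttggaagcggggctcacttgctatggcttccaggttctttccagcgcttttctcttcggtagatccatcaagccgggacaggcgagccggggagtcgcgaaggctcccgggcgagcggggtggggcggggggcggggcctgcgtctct

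RefSeq gave 2 starts for IFI27, and the first is described here. IFI27 held 2 matches within 250 bases before that start. From the second start they lay 174 to 165 and 187 to 178 bases away. One on the strand of the gene lay 95 to 86 bases before the start, and the other, TTTCGGTTTC, read on the opposite strand, lay 108 to 99 bases before it and contains a CG dinucleotide, the site that DNMT1 methylates. IFI6 held 3 matches, at 156 to 147, 115 to 106 and 93 to 84 bases before the start, and none contains a CG. The 250-base windows of IFI27L1 and IFI27L2 held 0 matches. Over 35116 windows of that length, 1061 (3.02%) held at least 1 match and 79 (0.225%) held at least 2. A match is a description of the letters, not of binding. Windows also differed in CG content. IFI27 had 3 CG dinucleotides, or 4 before its second start, and IFI6 had 6. IFI27L1 had 22 and IFI27L2 19, with a median of 11 over all windows. DNA methylation was not measured in these files.

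**Figure D1:**
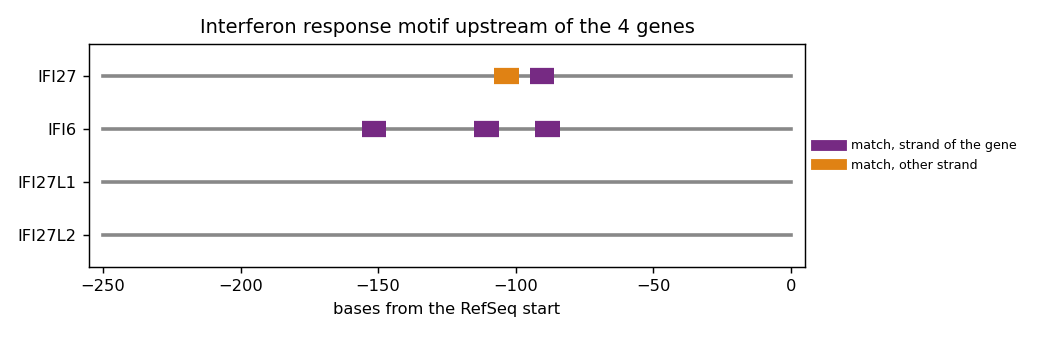
Positions of GAAANNGAAA matches in the 250 bases before the RefSeq start of each gene (for IFI27 the first of 2), in bases from the start, by strand. IFI27 held 2 matches and IFI6 held 3, and the windows of IFI27L1 and IFI27L2 held 0.

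In vehicle, IFI27L2 ran from 64.1 to 143 FPKM over the 8 DMSO libraries of MV411, from 51.6 to 92.3 for THP1 and from 44 to 61.5 for NOMO1. IFI27L1 ran from 14.8 to 20.2 FPKM for MV411, from 27.6 to 43.5 for THP1 and from 20.3 to 25.9 for NOMO1. IFI27 had the lowest level of the 4 genes, with 0.54 to 10.7 FPKM in MV411, 1.23 to 4.06 for THP1 and 0.235 to 3.7 for NOMO1. IFI6 had 4.2 to 58.4 FPKM in MV411, 16.8 to 27.3 for THP1 and 4.47 to 6.67 for NOMO1, above IFI27 in each vehicle group. The wide range in MV411 came from day 6. There IFI27 had 8.96 and 10.7 FPKM in DMSO libraries of day 6, against 0.95 and 0.614 in those of day 1, a difference of 3.02 ± 0.42 (SE) on the scale of log2(FPKM + 0.5). IFI6 had 52.8 and 58.4 FPKM at day 6, against 4.2 and 5.73 at day 1, a difference of 3.37 ± 0.23, and its level at day 6 was above that of IFI27L1, with 19.3 and 18.5 FPKM. Day 6 libraries lay above those of days 1, 2 and 4 without overlap for both genes. These differences between vehicle groups were added after the data were seen and were not tested. In THP1 the same differences were 0.09 ± 0.35 for IFI27 and 0.17 ± 0.08 for IFI6. In NOMO1 day 6 stood below day 1 for IFI27, by -1.22 ± 0.56, and IFI6 differed by -0.15 ± 0.21.

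**Figure D2:**
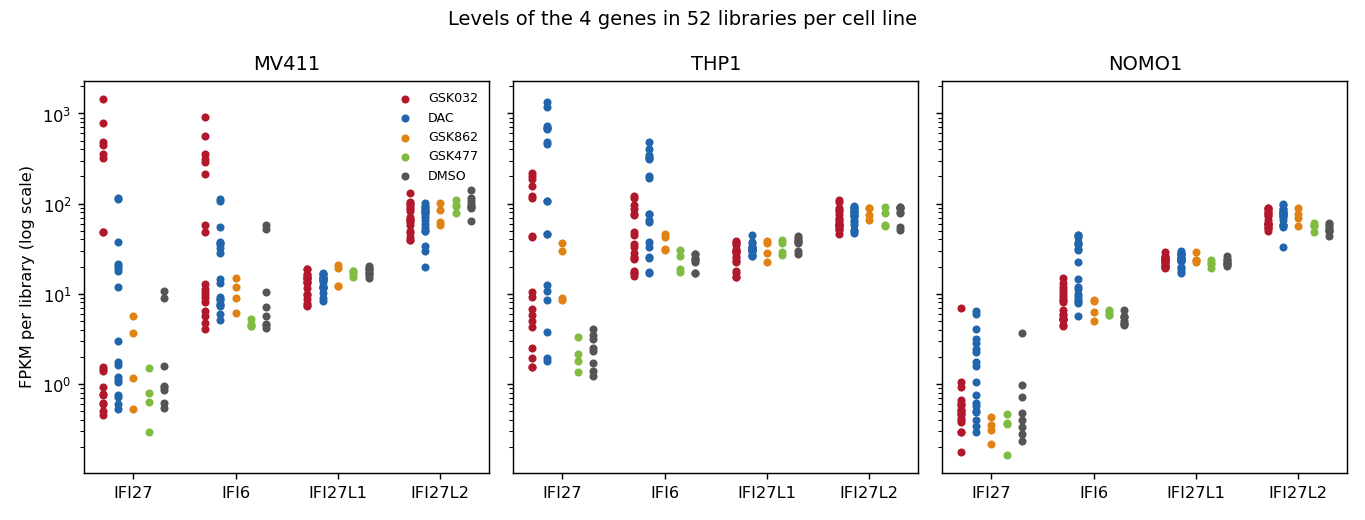
FPKM of the 4 genes on a log axis in each library, by compound and line, over all doses and days. Between its lowest and highest library IFI27 spans 4925-fold in MV411 and 1094-fold in THP1, and IFI6 226-fold and 30.2-fold, whereas IFI27L1 spans at most 2.91-fold and IFI27L2 at most 7.18-fold in any line.

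The level of IFI27 by dose in MV411 had a floor and a steep step. At day 4 IFI27 had 1.58 and 0.927 FPKM in DMSO, 1.54 and 0.751 at 3.2 nM GSK032, 0.92 and 0.498 at 16 nM and 1.47 and 1.39 at 80 nM. Libraries up to 80 nM overlapped with DMSO or lay below it. It then had 48.9 and 48.1 FPKM at 400 nM, 486 and 448 at 2000 nM and 357 and 318 at 10000 nM, all above the libraries of the lower doses, and highest at 2000 nM. Log2 differences from DMSO were 4.83, 8.08 and 7.62 at those 3 doses (SE 0.42 each). With DAC the step lay at the same dose and the levels above it were lower. IFI27 had 0.52 and 2.96 FPKM at 3.2 nM DAC, 0.6 and 1.04 at 16 nM, 0.745 and 1.09 at 80 nM, 17.8 and 20.5 at 400 nM, 37.6 and 19.5 at 2000 nM and 12 and 21.5 at 10000 nM. The 3 highest doses of DAC overlapped with each other and lay above DMSO, with log2 differences of 3.51, 4.00 and 3.27. In bulk RNA, a change in the share of cells that express a gene and a change in each cell cannot be told apart. Summed myeloid markers also reached higher levels in this line, with 998 to 9582 FPKM with GSK032 and 936 to 2897 with DAC, against 647 to 1970 in DMSO. LYZ weighed most, with up to 9119 FPKM over all libraries of MV411, against 366 to 1727 in DMSO. CD33 went the other way, down to 34.2 FPKM, against 69.7 to 94.9 in DMSO. The part of these markers in the result was not tested.

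THP1 gave the opposite order of the compounds. At day 4 IFI27 had 1.39 and 1.23 FPKM in DMSO, 1.8 and 1.95 at 3.2 nM DAC, 12.6 and 10.6 at 16 nM, 108 and 108 at 80 nM, 484 and 458 at 400 nM, 735 and 691 at 2000 nM and 689 and 681 at 10000 nM. Every DAC group lay above DMSO, and the groups stood apart from each other up to 2000 nM. With GSK032 it had 1.94 and 1.55 FPKM at 3.2 nM, 6.77 and 1.53 at 16 nM, 5.84 and 5.02 at 80 nM, 43.8 and 42.1 at 400 nM, 116 and 121 at 2000 nM and 157 and 189 at 10000 nM. Every GSK032 group lay above DMSO as well, by little at 3.2 nM, as with DAC. The 2 libraries at 16 nM GSK032 disagreed, and a wider separation began at 80 nM. Log2 differences from DMSO at 400, 2000 and 10000 nM were 8.02, 8.62 and 8.56 with DAC and 4.58, 6.04 and 6.57 with GSK032 (SE 0.35 each). The summed myeloid markers of THP1 overlapped between groups, with 418 to 680 FPKM with GSK032 and 436 to 706 with DAC, against 448 to 641 in DMSO. Single ones moved in both directions over all libraries of THP1. CD14 reached 23.4 FPKM, against 1.84 to 2.49 in DMSO, and SPI1 went down to 32.5, against 69.6 to 86.9. With DAC other markers reached higher sums in THP1, with 2.18 to 49.8 FPKM of epithelial markers against 1.63 to 2.73 in DMSO, 0.727 to 27.4 of fibroblast markers against 0.303 to 1.2 and 0.251 to 11 of T-cell markers against 0.278 to 0.605. Their part in the result was not tested.

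IFI27 was low in NOMO1, and stood above vehicle at the higher doses of DAC. It had 1.59 and 1.74 FPKM at 400 nM DAC and day 4, 2.43 and 2.28 at 2000 nM and 2.84 and 4.02 at 10000 nM, against 0.277 and 0.235 in DMSO. These libraries lay above DMSO of that day, with log2 differences of 1.52, 1.92 and 2.36 (SE 0.56 each). At these levels the size depended on the pseudocount, and with 0.1 in place of 0.5 the differences of IFI27 were 2.31, 2.79 and 3.29. With 10000 nM GSK032 it had 0.294 and 0.399 FPKM, a log2 difference of 0.16 ± 0.56 from DMSO. At day 1 the first library was high in all 3 groups, with 6.95 and 0.663 FPKM with GSK032, 3.16 and 0.569 with DAC and 3.7 and 0.469 in DMSO. Libraries within each of these groups therefore differed more than the groups, and no direction is given for day 1 in this line. IFI27 passed the filter on low values in NOMO1 through treated libraries and 1 DMSO library.

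**Figure D3:**
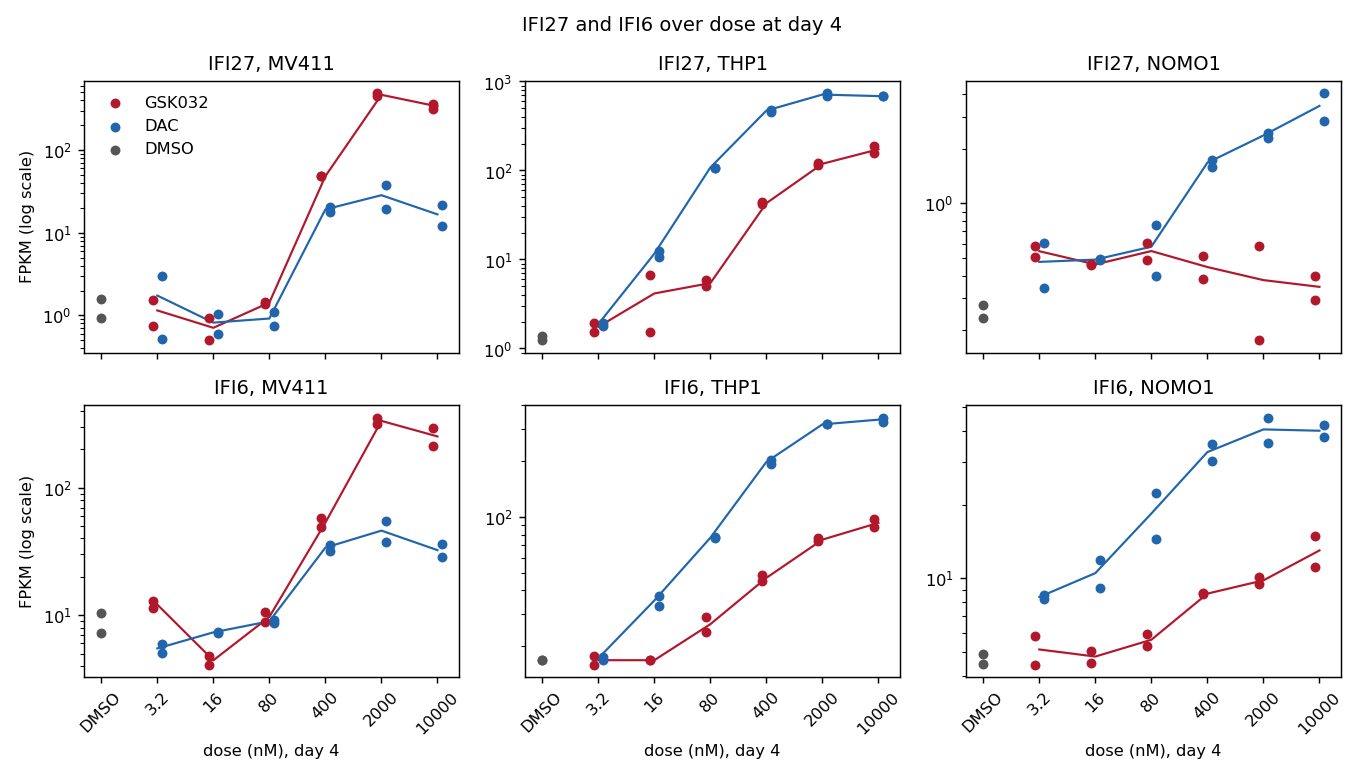
FPKM per library at day 4, on a log axis, for IFI27 and IFI6 in DMSO and at 3.2 to 10000 nM GSK032 or DAC, by line, with lines through the group means. In MV411 GSK032 lies above DAC from 400 nM for IFI27, and in THP1 DAC lies above GSK032 from 16 nM.

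IFI6 followed a similar pattern in MV411 and THP1 from a higher start, and could be tested. A gene was called where the adjusted p was under 0.05 and the log2 difference at least 1 in size, by limma with Benjamini-Hochberg adjustment over all genes of the contrast. IFI6 was called higher than DMSO in 7 of 21 tested contrasts in MV411, 12 of 22 for THP1 and 8 of 22 for NOMO1, and lower in 0 of those 65. Of all genes tested in the 22 contrasts of each line, 3.78% were called higher for MV411, 2.42% for THP1 and 4.39% for NOMO1. In MV411 the gene had 356 and 315 FPKM with 2000 nM GSK032 and 292 and 214 with 10000 nM, against 10.4 and 7.19 in DMSO. Treated libraries lay far above DMSO, by 5.19 ± 0.23 and 4.77 ± 0.23 (adjusted p = 3.02e-17 and 1.81e-16). With 400 nM GSK032 it had 57.7 and 48.8 FPKM, a log2 difference of 2.55 ± 0.23. With DAC in MV411 it had 35.7 and 32 FPKM at 400 nM, 55 and 37.3 at 2000 nM and 36.1 and 28.6 at 10000 nM. These groups overlapped with each other and stood above DMSO, by 1.90, 2.32 and 1.83 (SE 0.23 each), all called.

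In THP1 IFI6 rose with DAC from 16 nM. It had 16.9 and 16.8 FPKM in DMSO of day 4, 17.5 and 16.9 at 3.2 nM DAC, 33.1 and 37.5 at 16 nM, 76.6 and 77.5 at 80 nM, 204 and 192 at 400 nM, 316 and 317 at 2000 nM and 327 and 344 at 10000 nM. Each dose from 16 nM lay above the dose before it. Log2 differences from DMSO were 1.04, 2.16, 3.52, 4.19 and 4.27 for the 5 doses from 16 nM (SE 0.08 each), all called, the last with an adjusted p of 7.85e-25. With GSK032 it had 44.9 and 48.7 FPKM at 400 nM, 76.7 and 73.9 at 2000 nM and 87.9 and 97.7 at 10000 nM, rises of 1.44, 2.13 and 2.42, all called. The lowest DAC call, at 16 nM, ended after scaling to equal column sums, where the log2 difference was 0.99 (adjusted p = 0.00203).

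In NOMO1 IFI6 rose at day 4 with DAC and with the highest dose of GSK032. At day 6 libraries of 400 nM GSK032 also stood above DMSO, with 11.8 and 13.2 FPKM against 4.61 and 5.48. At day 4 IFI6 had 30.2 and 35.5 FPKM with 400 nM DAC, 45.4 and 35.8 with 2000 nM and 37.7 and 42.5 with 10000 nM, against 4.47 and 4.92 in DMSO. Treated libraries stood well apart from DMSO, with log2 differences of 2.68, 2.98 and 2.96 (SE 0.21 each), all called. DAC at 16 and 80 nM was also called, at 1.08 and 1.83. With 10000 nM GSK032 it had 11.1 and 14.9 FPKM, a rise of 1.36 ± 0.21 (adjusted p = 2.33e-06). At 2000 nM GSK032 the log2 difference of 0.99 ± 0.21 missed the size required (adjusted p = 0.000312), and it was 1.05 without the second DMSO library of day 4. In NOMO1, DAC libraries also carried higher sums of T-cell markers, 12.6 to 211 FPKM against 4.3 to 13 in DMSO, of epithelial markers, 41.1 to 221 FPKM against 26.5 to 40.7, and of fibroblast markers, 3.93 to 52.4 FPKM against 2.39 to 9.55. Myeloid markers summed to 1776 to 6549 FPKM with DAC, against 5558 to 7771 in DMSO, and single ones moved in both directions. Over all libraries of NOMO1 LYZ went down to 1383 FPKM, against 3714 to 5604 in DMSO, and MPO to 36.9, against 1512 to 2248. CD14 reached 152 FPKM, against 1.11 to 3.23 in DMSO, and PTPRC 168, against 68.6 to 85.1. CD3E and CD2 reached at most 0.799 and 0.914 FPKM over all libraries of NOMO1, and the part of these markers in the result was not tested.

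The balance between IFI27 and IFI6 was described by the ratio of their mean FPKM. The ratio was 0.911 with 400 nM GSK032 at day 4 in MV411 and 1.51 at day 6, against 0.142 and 0.177 in DMSO of those days. In THP1 it was 2.38 with 400 nM DAC at day 4 and 2.86 at day 6, against 0.0778 and 0.121 in DMSO. In NOMO1 it was 0.0507 with 400 nM DAC and 0.0856 with 10000 nM DAC at day 4, against 0.0546 in DMSO, and 0.162 with 400 nM DAC at day 6, against 0.0722 in DMSO. IFI27, the lower of the pair in vehicle, was thus the higher with the strongest treatments of MV411 and THP1, and stayed the lower in NOMO1. Across the 26 group means of log2(FPKM + 0.5), Pearson's r between IFI27 and IFI6 was 0.98 in MV411, 0.97 in THP1 and 0.64 in NOMO1. These points share vehicle groups, lines and library preparation, so r is a description without a p.

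IFI27L1 and IFI27L2 behaved otherwise. Against DMSO IFI27L1 was called in 0 of 66 contrasts and IFI27L2 in 1, lower, with limma. Without the size required, the adjusted p was under 0.05 for IFI27L1 in 13 and for IFI27L2 in 10, and the unadjusted p in 14 and 18. Of all genes tested, 2.44% were called lower for MV411, 1% for THP1 and 1.92% for NOMO1 in these contrasts. The call of IFI27L2 was at 10000 nM DAC in MV411, where it had 33.6 and 19.9 FPKM, against 89.1 and 64.1 in DMSO. The treated libraries lay below DMSO, by -1.53 ± 0.26 (adjusted p = 1.11e-05). All 13 of IFI27L1 were lower, in MV411 and THP1, whereas of the 10 of IFI27L2 the 3 in MV411 were lower and the other 7, in THP1 and NOMO1, were higher. Those 7 lay under the size required, at 0.47, 0.53 and 0.60 with 16, 80 and 400 nM DAC and 0.41 with GSK862 at day 4 in THP1, and at 0.79 with 400 nM DAC and 0.68 and 0.66 with 2000 and 10000 nM GSK032 at day 4 in NOMO1. IFI27L1 had 7.33 and 7.86 FPKM with 10000 nM GSK032 in MV411, against 16.1 and 14.8 in DMSO, a log2 difference of -0.98 ± 0.14 (adjusted p = 7.19e-07). In THP1 it had 15.5 and 15.3 FPKM with 10000 nM GSK032, against 29.9 and 27.6 in DMSO, or -0.88 ± 0.11 (adjusted p = 8.41e-08). Libraries did not overlap in either line. With 10000 nM DAC in THP1 the log2 difference of IFI27L1 was -0.01 ± 0.11. In MV411 the first call of IFI27L1 appeared when the second library of DMSO at day 4 or of 10000 nM GSK032 was left out, at -1.04 and -1.03. Without that DMSO library IFI27L2 had a further call, at 2000 nM DAC.

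Over all groups the levels of IFI27L1 ran from 7.33 to 21 FPKM for MV411, 15.3 to 44.5 for THP1 and 17.1 to 29.8 for NOMO1. IFI27L2 ran from 19.9 to 143, 45.7 to 109 and 33.4 to 100 FPKM in the same lines. When the 26 groups were put in order of level, 2 of 25 neighbouring pairs were apart for IFI27L1 in MV411, 5 in THP1 and 0 in NOMO1, and for IFI27L2 0, 1 and 0. For IFI27 it was 9, 15 and 3 and for IFI6 7, 13 and 5, with medians of 2, 1 and 2 over all genes tested. IFI27L1 and IFI27L2, on either side of IFI27, had r of 0.83 with each other in MV411, 0.59 in THP1 and 0.37 in NOMO1. Their r with IFI27 was -0.67 and -0.43 in MV411 and between -0.36 and 0.09 in the other lines, and the r of IFI27L2 with IFI6 was -0.37 for MV411, 0.13 for THP1 and 0.64 for NOMO1. In NOMO1 the libraries of 80 nM DAC stood apart for IFI27L2, at 100 and 33.4 FPKM, and for IFI27L1, at 29.8 and 17.1.

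Levels over time at 400 nM differed by line and by compound. In MV411 IFI27 had 0.447 and 0.593 FPKM at day 1 of GSK032, 0.777 and 0.616 at day 2, 48.9 and 48.1 at day 4 and 790 and 1454 at day 6. Days 1 and 2 of GSK032 lay at the level of vehicle or below it, and the higher levels appeared after day 2. With DAC in MV411 IFI27 had 1.77 and 1.61 FPKM at day 2, above DMSO with 0.54 and 0.848. In THP1 it had 8.56 and 3.73 FPKM at day 1 of DAC, 46.3 and 46.6 at day 2, 484 and 458 at day 4 and 1346 and 1182 at day 6, each day above the last. GSK032 in THP1 gave 9.22 and 10.4 FPKM at day 2, against 1.7 and 2.49 in DMSO, and 204 and 216 at day 6. In NOMO1 DAC gave 5.91 and 6.41 FPKM at day 6, against 0.393 and 0.336 in DMSO, the highest group of IFI27 with concordant libraries in that line, and the log2 difference was 3.75 with a pseudocount of 0.1. In MV411 the libraries of GSK032 at day 6 differed from each other, and the log2 difference from DMSO of 6.70 ± 0.42 was 7.14 without the first and 6.26 without the second. The vehicle of MV411 was higher at day 6 too, and DAC, with 112 and 114 FPKM, stood 3.46 ± 0.42 above DMSO at day 6 and 3.51 ± 0.42 at day 4.

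For IFI6 the day 6 effect minus the day 1 effect was tested as a difference of differences. With GSK032 it was 3.25 ± 0.32 in MV411 (adjusted p = 4.24e-09), 2.04 ± 0.12 in THP1 (adjusted p = 6.85e-13) and 1.04 ± 0.29 in NOMO1 (adjusted p = 0.0127), all called. Leaving out the first DMSO library of day 1 or day 6, or the second GSK032 library of day 1 or day 6, ended the call in NOMO1, with 0.76 to 0.97, and so did a pseudocount of 1, with 0.99. With DAC it was 3.94 ± 0.12 in THP1 and 2.56 ± 0.29 in NOMO1, both called, and 0.31 ± 0.32 in MV411 (adjusted p = 0.603). Behind the last value lay 112 and 108 FPKM with DAC at day 6, against 52.8 and 58.4 in DMSO, and 7.72 and 8.42 with DAC at day 1, against 4.2 and 5.73 in DMSO. Of all genes, 6.38% were called higher in these 2 contrasts for MV411, 4.39% for THP1 and 7.98% for NOMO1. For IFI27 the same differences, given without a test, were 7.02, 5.70 and -0.57 with GSK032 in MV411, THP1 and NOMO1 and 3.29, 7.59 and 2.97 with DAC. IFI27L1 and IFI27L2 were called in 0 of 6 each with limma, with an unadjusted p under 0.05 in 2 and 0.

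**Figure D4:**
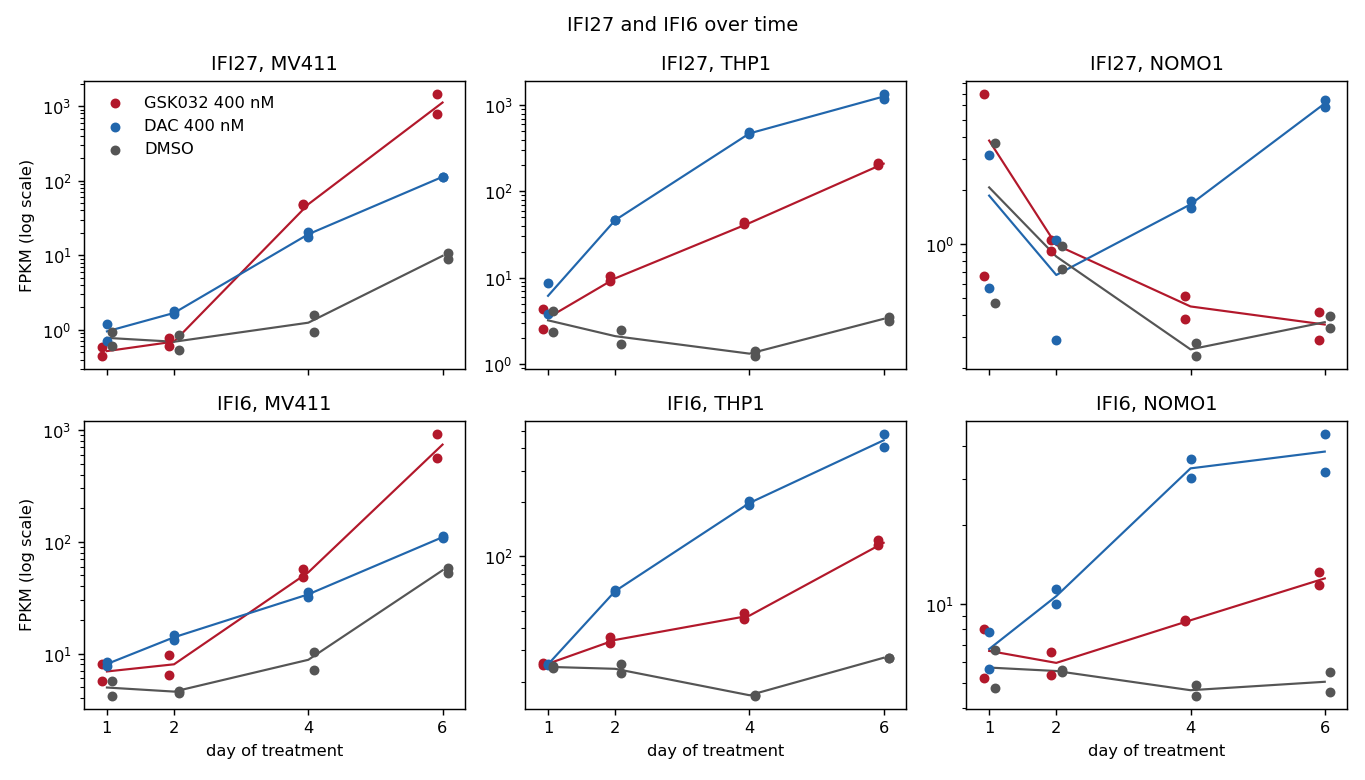
FPKM per library, on a log axis, for IFI27 and IFI6 at days 1, 2, 4 and 6 with 400 nM GSK032 or DAC or with DMSO, by line, with lines through the group means. DMSO of MV411 is highest at day 6, at 8.96 and 10.7 FPKM for IFI27.

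GSK032 was set against DAC directly at matched dose and day, in 9 contrasts per line. IFI6, IFI27L1 and IFI27L2 were tested. IFI27 is given without a test, since the same treated libraries led to the choice of the family. Differences are GSK032 minus DAC in log2(FPKM + 0.5). In MV411 IFI6 was called higher with GSK032 in 4 of 9 contrasts. It was called lower with GSK032 in 6 for THP1 and in 6 for NOMO1. Over the 9 contrasts 1.42% of genes for MV411, 1.05% for THP1 and 2.57% for NOMO1 were called higher with GSK032, and 1.42%, 2.13% and 5.47% lower. IFI27L1 and IFI27L2 were called in 0 of 27 contrasts each, with limma, with an unadjusted p under 0.05 in 8 and 6. In MV411 at 10000 nM IFI27L2 differed by 0.77 (95% interval 0.23 to 1.3, adjusted p = 0.0202), which became a call at 1.14 without the first DAC library and at 1.4 with equal column sums. IFI27L1 differed by -0.87 (-1.09 to -0.65, adjusted p = 1.17e-07) at 10000 nM in THP1, under the size required.

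In MV411 IFI27 had 357 and 318 FPKM with 10000 nM GSK032, against 12 and 21.5 with DAC. The GSK032 libraries stood far above, by 4.35 ± 0.42. At 2000 nM the difference was 4.08, at 400 nM and day 6 3.24 and at 400 nM and day 4 1.32. The last was 1.22 to 1.42 with single libraries of the 2 groups left out in turn. IFI6 differed by 2.94 at 10000 nM, 2.87 at 2000 nM and 2.70 at 400 nM and day 6, all called. At 400 nM and day 4 it differed by 0.64 ± 0.23, given without a test. At 3.2 nM IFI6 had 12.8 and 11.4 FPKM with GSK032, against 5.06 and 5.9 with DAC. That difference, 1.08, was called (adjusted p = 0.0115), although neither group was called against DMSO with 10.4 and 7.19 FPKM.

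In THP1 the differences ran the other way. IFI27 had 43.8 and 42.1 FPKM with 400 nM GSK032 at day 4, against 484 and 458 with DAC. The libraries did not overlap, and the difference was -3.44 ± 0.35. It was -1.66 at 16 nM, -4.20 at 80 nM, -2.58 at 2000 nM and -1.99 at 10000 nM, largest in size at 80 nM of the 6 doses. With equal column sums the difference at 16 nM was -1.59. IFI6 differed by -1.05, -1.54, -2.07, -2.06 and -1.85 at the 5 doses from 16 nM, and the first of these was no longer called with equal column sums, at -0.97 (adjusted p = 0.00407). In NOMO1 IFI27 differed by -1.74 at 2000 nM, -2.20 at 10000 nM and -2.97 at 400 nM and day 6. IFI6 differed by -1.60 to -1.99 from 80 to 10000 nM. Its call at 16 nM in NOMO1 ended with a pseudocount of 1 (-0.98). For IFI27 at 400 nM and day 4 in NOMO1 the difference was -1.20 ± 0.56.

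**Figure D5:**
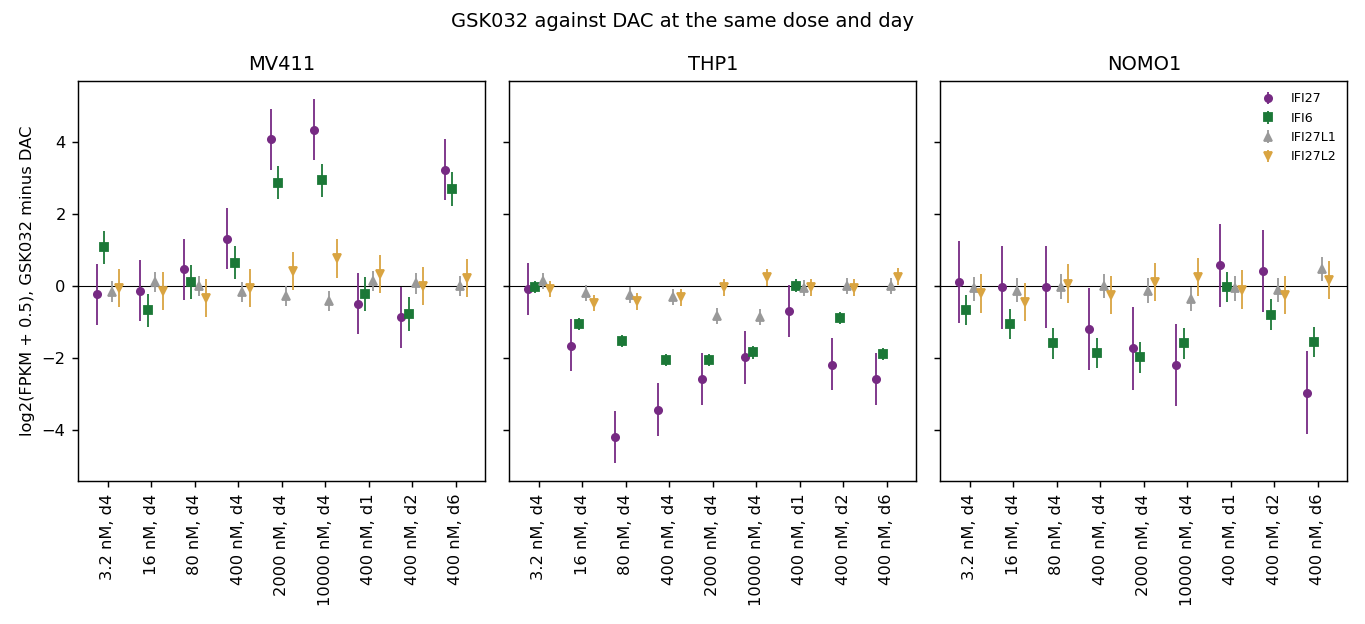
Difference of GSK032 minus DAC in log2(FPKM + 0.5) at 9 matched doses and days, with 95% intervals, for the 4 genes in each line. IFI27 and IFI6 lie above 0 in MV411 at 2000 and 10000 nM and below 0 in THP1 and NOMO1 at those doses.

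Levels with GSK477 lay on both sides of vehicle. IFI27 had 1.51 and 0.624 FPKM with 10000 nM GSK477 at day 4 for MV411, against 1.58 and 0.927 in DMSO. It had 3.28 and 1.79 for THP1, against 1.39 and 1.23, and 0.162 and 0.364 for NOMO1, against 0.277 and 0.235. IFI6 was called in 0 of 6 contrasts of GSK477 against DMSO with limma, with an unadjusted p under 0.05 in 2. Few genes of any kind were called in these contrasts, at most 0.173% higher and 0.445% lower, so 0 of 6 is near that share. In MV411 IFI6 had 4.38 and 4.43 FPKM with GSK477 at day 4, against 10.4 and 7.19 in DMSO, a log2 difference of -0.90 ± 0.23 (adjusted p = 0.038) under the size required, and called at -1.16 without the second DMSO library. At that dose and day, the log2 difference of IFI27 from GSK477 was 7.81 with GSK032 in MV411, 5.87 in THP1 and 0.16 in NOMO1, and with DAC it was 3.46, 7.86 and 2.36. These IFI27 differences are given without a test, since the same treated libraries led to the choice of the family. IFI6 was called higher in 6 of 6 such contrasts, by 5.67, 2.31 and 1.02 with GSK032 and 2.74, 4.16 and 2.62 with DAC. The smallest, GSK032 in NOMO1, fell under the size required without the first GSK477 library (0.98) or the second GSK032 library (0.81), or with a pseudocount of 1 (0.97). Of all genes tested in these contrasts, 12.3% were called higher in MV411, 8.25% for THP1 and 11.7% for NOMO1. In MV411, where 11.8% were called lower, IFI27L1 was called lower with GSK032, at -1.03, and IFI27L2 with DAC, at -1.74. The IFI27L1 call ended without the first GSK032 library (-0.98) or 1 of the GSK477 libraries (-0.96), with a pseudocount of 1 (-0.98) or with equal column sums (-0.87).

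GSK862 was given at 1000 nM, a dose that no other compound shares, and is set beside them without a comparison. At day 4 IFI27 had 5.62 and 3.71 FPKM with GSK862 in MV411, against 1.58 and 0.927 in DMSO, and in THP1 29.6 and 36.8 FPKM, against 1.39 and 1.23. The GSK862 libraries lay above DMSO in both lines. In NOMO1 it had 0.429 and 0.31 FPKM, against 0.277 and 0.235. IFI6 was called with GSK862 in THP1 at day 4, with 46 and 42.1 FPKM against 16.9 and 16.8 in DMSO, a rise of 1.36 ± 0.08 (adjusted p = 1.14e-12). It was not called in MV411, at 0.59 ± 0.23, or in NOMO1, at 0.79 ± 0.21.

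Differences between 10000 and 400 nM at day 4 are given without a test for IFI27, and for IFI6 with GSK032 in MV411, for the same reason. IFI6 was called with DAC in no line. For GSK032 the difference of 10000 minus 400 nM was 2.78 ± 0.42 for IFI27 in MV411, 1.99 ± 0.35 in THP1 and -0.16 ± 0.56 in NOMO1. For IFI6 it was 2.22 ± 0.23 in MV411 and 0.98 ± 0.08 in THP1. The THP1 difference was under the size required with limma (adjusted p = 7.23e-10). It was 1.05 or 1.04 without the first library at 10000 nM or the second at 400 nM. In NOMO1 it was 0.54. For DAC IFI27 differed by -0.24 ± 0.42 for MV411, 0.54 ± 0.35 for THP1 and 0.84 ± 0.56 for NOMO1. IFI6 differed by -0.07 (95% interval -0.54 to 0.39) in MV411, by 0.76 (0.59 to 0.93, adjusted p = 4.72e-08) in THP1, under the size required, and by 0.28 (-0.14 to 0.71) in NOMO1. In these contrasts 2.08% of genes were called higher for MV411, 2.16% for THP1 and 4.02% for NOMO1. In MV411, with 1.87% of genes called lower, IFI27L2 was called lower at 10000 nM DAC, at -1.06, a call that ended without the first library at 400 nM (-0.93) or the second at 10000 nM (-0.68).

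Genes of the interferon pathway were followed by role at 400 nM and day 4, and limma gave their calls. The ligands were hardly seen, with 0 of 10 interferon genes passing the filter in any line and at most 1.02 FPKM, for IFNB1 in MV411. Of the receptor genes IFNLR1 had at most 0.271 FPKM in MV411 and THP1 and did not pass the filter there. IFNAR1 ran from 11.5 to 20.5 FPKM over all libraries of MV411. Receptor genes, 5 or 6 per line, were called in 0 of 32 tests with GSK032 or DAC. The adjusted p was under 0.05 in 9 and the unadjusted p in 11. Of all genes tested in these contrasts, 1.94 to 13.2% were called higher and 0.336 to 5.94% lower. The count of 0 is therefore not read as a result about receptors. Of the signalling genes, IRF9 (1.32 ± 0.17) and STAT2 (1.03 ± 0.07) rose with GSK032 in MV411. Both rose with DAC in THP1, by 1.59 ± 0.09 and 1.36 ± 0.10, and IRF9 rose with DAC in NOMO1, by 1.00 ± 0.17. Of the regulators, IRF7, which amplifies interferon production, rose with DAC by 2.42 ± 0.12 in THP1 and 1.4 ± 0.23 in NOMO1. IRF8, a myeloid factor, fell by 1.05 and 1.62 there.

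Among the sensors of foreign or misplaced nucleic acid, DDX58, DHX58 and IFIH1 rose with DAC in THP1, by 2.08 ± 0.13, 1.88 ± 0.15 and 1.73 ± 0.13. EIF2AK2, the kinase that responds to double-stranded RNA, rose by 1.17 ± 0.14 with GSK032 in MV411 and fell by 1.04 with DAC in NOMO1. The inhibitors USP18 and SOCS1, which damp the receptor's signal, rose with DAC by 2.43 ± 0.13 and 1.95 ± 0.22 in THP1, and by 1.61 ± 0.14 and 2.04 ± 0.21 in NOMO1. In MV411 SOCS1 rose by 1.4 ± 0.21 with DAC. SKP2, an F-box protein reported as a partner of IFI27, fell by 1.17 with GSK032 and 1.27 with DAC in MV411 and by 1.61 with DAC in NOMO1. The other genes listed as reported partners were not called.

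Target genes were called most often where IFI27 and IFI6 were highest, GSK032 in MV411 and DAC in THP1. With GSK032 19 of 34 tested targets were called higher in MV411, 12 of 35 for THP1 and 2 of 33 for NOMO1, and with DAC 4, 32 and 14. All genes tested gave 6.55%, 1.94% and 2.55% called higher with GSK032 in MV411, THP1 and NOMO1, and 6.86%, 6.23% and 13.2% with DAC. Median log2 differences of the targets were 1.1, 0.84 and 0.07 with GSK032 and 0.49, 2.25 and 0.87 with DAC, against medians between -0.03 and 0.00 for all genes. The list was drawn up with earlier results of these data known, so its direction is not independent evidence. IFITM3, which blocks viral entry, rose by 3.33 ± 0.38 with GSK032 in MV411, LGALS3BP by 2.92 ± 0.22, the antiviral GTPase MX1 by 2.46 ± 0.23 and IFI44L by 2.04 ± 0.21. With DAC in THP1 IFI44L rose by 4.84 ± 0.21, IFIT1, which binds viral RNA, by 4.20 ± 0.23 and MX1 by 3.92 ± 0.10.

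Targets in NOMO1 were mixed. With DAC LGALS3BP rose by 4.35 ± 0.22, IFITM3 by 2.50 ± 0.25 and GBP1 by 2.11 ± 0.13, whereas MX1 differed by -0.21 ± 0.17 and was not called, and MX2 fell by 1.04. With GSK032 LGALS3BP rose by 2.79 ± 0.22 and the chemokine gene CXCL10 fell by 1.2. The count of 2 with GSK032 was 4 without the first of its libraries and 1 without the second. Between compounds at 400 nM and day 4, 11 of 34 targets were called higher with GSK032 than with DAC in MV411, where 0.682% of genes were. In THP1 28 of 35 were called lower with GSK032, against 2.99% of genes, and in NOMO1 13 of 33, against 9.73%. In RefSeq, 20 of the 27 targets matched by name held GAAANNGAAA in their 250-base windows.

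The genes most like IFI27 were sought among 11881 protein-coding genes tested in all 3 lines, by the mean over the lines of Pearson's r across the 26 group means. The first 8 were EPSTI1 (mean r 0.92), OAS1 (0.91), OAS3 (0.90), PARP14 (0.89), DDO (0.87), APOL3 (0.87), STAT2 (0.87) and APOL1 (0.87). OAS1 and OAS3 make the messenger that activates RNase L, and STAT2 is a subunit of the factor that binds the response element. In NOMO1 the r of each was lower, from 0.68 to 0.83. These values are descriptions over groups that share their vehicle.

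Genes beside the family were looked at as well. Of 7 protein-coding genes within 100 kb of a member, 6 were tested in at least 1 line. FGR, a Src-family kinase gene of myeloid cells near IFI6, was called higher against DMSO in 14 of 22 contrasts in MV411, 4 in THP1 and 6 in NOMO1, with up to 3.95 ± 0.14 at 400 nM GSK032 and day 6 in MV411. Over these contrasts 3.78% of all genes were called higher for MV411, 2.42% for THP1 and 4.39% for NOMO1. FGR was called with 80 nM of either compound in MV411, by 2.03 ± 0.14 with GSK032 and 1.63 ± 0.14 with DAC, where IFI6 was not called. AHDC1, also near IFI6, was called in 3 contrasts of DAC in THP1, by 1.1 to 1.48, where 6.23 to 11.1% of all genes were called higher. On chromosome 14, PPP4R4 was called in 4 contrasts of DAC in NOMO1, by 1.03 to 1.22, with at most 1.34 FPKM. In those, 13.2 to 16.1% of all genes were called higher. DDX24, beside IFI27L1, was called lower once, at 10000 nM DAC in MV411, by -1.06 ± 0.10, where 12.5% of all genes were called lower. FAM76A and OTUB2 were called in none, and CCDC197 did not pass the filter.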

How the data were processed

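RNA-seq libraries of MV411, THP1 and NOMO1 cells were analysed from 1 deposited table of FPKM values per line. Per the submitters' processing notes, which give no roles, Salmon 0.12.0, DESeq2 (no version named) and the build hg38 were used. How FPKM was computed by the authors is not given in the sources used here. The authors also deposited tables of log2 fold changes against DMSO without p-values, which served only for the closing section. Gene names came from GENCODE 29, which held 56511 (94.3%) of 59939 identifiers. Libraries were grouped by their labels, 2 per group.

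A separate limma 3.58.1 model (R 4.3.3) was run for every line on log2(FPKM + 0.5), with a mean per group, 26 residual degrees of freedom and variances moderated with a trend. All groups of a line thus share an estimate of the spread, and a log2 difference on this scale understates changes of low genes. Tests covered the genes that reached an FPKM of 1 in 2 or more libraries, which left 22007 for MV411, 23226 for THP1 and 20763 for NOMO1. All 4 family genes passed in each line, and p-values were adjusted by Benjamini and Hochberg over all genes of a contrast. Errors printed after ± are standard errors of the fit. The labels do not tell whether the libraries of a group are separate cultures, so p-values reflect only the spread between libraries, which may be technical.

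Depth was estimated from genes with 1 transcript of 800 to 6000 bases, where FPKM multiplied by length steps by 1 fragment. Of values up to 3 fragments, 58.0 to 79.1% lay within 0.15 of a whole number, against 30% by chance, so whole reads were not recovered and no count test was run. Replicates correlated with r of at least 0.940. The fit was tested on simulated data.

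The members and gene lists were chosen with earlier results of these data known. Named were the 4 members, up to 4 targets and 2 genes of each other list per contrast by size among those called, the 8 genes most like IFI27, and called neighbours within 100 kb. Further genes were named after their values were seen, where a whole count is spelled out (IFIH1, MX2) or for contrast (MX1 in NOMO1), and STAT2, among the 8 most like IFI27, was also given with the signalling genes. Some genes of the lists are not reported here. Alternatives were pseudocounts of 0.1 and 1, no filter, equal column sums, a replicate block, a replicate block within each day (added after the data were seen) and each library left out in turn.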

Additional observations from a re-analysis of the deposited data

Results flagged for a closer look

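At 2000 and 10000 nM and at 400 nM and day 6, every GSK032 library lay above every DAC library in MV411 and below in THP1 and NOMO1 for IFI27 and IFI6, and so it did for IFI27 at 400 nM and day 4 in MV411 against THP1. For IFI27, MV411 minus THP1 was 6.34 at 10000 nM, 6.67 at 2000 nM, 4.76 at 400 nM and day 4 and 5.83 at 400 nM and day 6. MV411 minus NOMO1 was 6.55 at 10000 nM, 5.82 at 2000 nM and 6.21 at 400 nM and day 6. For IFI6, MV411 minus THP1 was 4.79 at 10000 nM, 4.94 at 2000 nM and 4.59 at 400 nM and day 6, and MV411 minus NOMO1 was 4.54, 4.86 and 4.26. These differences between lines, all in log2(FPKM + 0.5), were not tested, because each line has a table of its own.

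The effect of 400 nM at day 6 differed from that at day 1 for IFI6, by a test of the difference itself with limma. It was larger at day 6 by 3.25 in MV411, 2.04 in THP1 and 1.04 in NOMO1 with GSK032, and by 3.94 in THP1 and 2.56 in NOMO1 with DAC. The call of 1.04 in NOMO1 ended without single libraries or with a pseudocount of 1. The causes were not tested. Groups of 2 libraries are too small for a search for single libraries far from the rest.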

How the results depend on the processing

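No called result reversed under the alternatives run, and untested IFI27 differences of NOMO1 at day 1 changed sign without single libraries, from -0.79 to 1.88 with GSK032 and -1.09 to 1.03 with DAC. Leaving out 1 library moved the count of contrasts against DMSO called for IFI27L1 in MV411 to between 0 and 1 and that for IFI27L2 between 1 and 2. The untested GSK032 minus DAC difference of IFI27 at 400 nM and day 4 in MV411 stayed between 1.22 and 1.42, against 1.32 in the main fit. The count of targets higher with GSK032 in NOMO1 also depended on single libraries. With a pseudocount of 0.1, IFI27L1 had 1 call in MV411, and the targets higher with 400 nM DAC in MV411 numbered 7 against 4. That IFI27 difference was little changed, at 1.34 with that pseudocount and 1.32 without the filter. Scaling to equal column sums moved the median of all genes by up to 0.58. It gave IFI27L1 1 call in MV411 and 1 in THP1 and IFI27L2 2 calls in MV411. With it the untested IFI6 difference between GSK032 and DAC at 400 nM and day 4 in MV411 was 1.02 against 0.64, where the median gene moved by 0.35. The cause of these changes was not tested.

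The labels do not say that replicate numbers pair the libraries. Correlations of same-numbered deviations over all days were -0.2 to 0.42 for MV411, -0.01 to 0.22 for THP1 and -0.12 to 0.23 for NOMO1. Within days 1, 2 and 6 all were positive, from 0.04 to 0.22 over the 3 lines. Within day 4 they were -0.05 to 0.42 for MV411, 0.01 to 0.22 for THP1 and -0.03 to 0.14 for NOMO1. Pairing was not assumed, and blocks were run as alternatives. At day 4 in MV411 library 1 was above library 2 in 13 of 13 numbered groups for IFI27L2 and in 12 for IFI6. A replicate block over all days changed no call, with 443 of 443 results on the same side. A block within each day, chosen after seeing the data, changed no call of IFI6, IFI27L1 or IFI27L2. With it the untested IFI27 difference between GSK032 and DAC at 400 nM and day 4 in NOMO1 stayed at -1.20. For the IFI27 difference between GSK032 and DAC at 10000 nM in MV411 the fit with the block over all days gave 4.35. Depth of single libraries is an estimate, so no counting interval is given, and levels of IFI27 near 0.5 FPKM are the least certain.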

Other observations

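Some columns of the authors' deposited table of log2 fold changes went against their headers. In THP1 the column headed 400 nM DAC at day 4 among the dose series held the same value as that of 400 nM DAC at day 6 in 46382 of 46382 genes. In the authors' deposited table of THP1 the column of 10000 nM DAC had r = -0.004 across genes with the contrast computed from FPKM, and gave IFI27 0.36 and IFI6 -0.87, against 8.56 and 4.27 in that contrast. In that of MV411 the columns of 400 nM DAC at day 1 and of GSK477 at day 4 had r of 0.003 and 0.009, and a column headed 200 nM DAC was closest to the contrast of 2000 nM, with r = 0.88. Genes are not independent replicates, so these r are descriptions. No comparison rests on these columns.

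In NOMO1 at day 1 the first library had more IFI27 than the second in all 3 groups, GSK032, DAC and DMSO. IFI6 had the same order in these groups, with 8.01 and 5.23 FPKM with GSK032, 7.82 and 5.65 with DAC and 6.67 and 4.78 in DMSO. The order was seen after the data were examined, and was not tested.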
